A study of Mus musculus with 18 samples.

Results

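Potassium channel genes were taken as every entry of the expression table whose symbol is KCN followed by letters and a number, which leaves out the antisense RNA Kcnq1ot1. The rule gave 92 of 23626 genes, of which 91 are described here, 76 for pore-forming subunits and 15 for accessory subunits, in 14 subfamilies. They were followed in 18 messenger RNA libraries of YFP-sorted mouse thyrocytes, the hormone-making epithelial cells of the thyroid, collected at 20 weeks from animals labelled naive for treatment. The labels give no driver for YFP or for the Braf mutation and do not say whether each library is a separate animal, so p-values measure only the spread between these libraries.

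Braf tumours carried BrafV600E, which activates the kinase Braf of the MAPK pathway (n = 4). Tert-123 tumours carried BrafV600E with Tert-123C>T, a change in the promoter of the telomerase gene Tert (n = 7), and K5-Tert tumours carried BrafV600E with a Tert transgene named for the keratin 5 promoter (n = 4). Tissue lacking the Braf mutation came as 3 single libraries of pooled samples, of wild type, of Tert-123C>T and of K5-Tert. Tert itself stood at 2.65 to 6.23 TPM (a share of transcripts scaled to a total of 1000000) in the Braf and Tert-123 tumours, at 11.2 to 73.9 TPM in the K5-Tert tumours and at 125 TPM in the K5-Tert pool. Braf transcripts were between 2.40 and 15.8 TPM in all 18 libraries, which says nothing of the mutation.

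The thyrocyte markers Tg, Tshr, Slc5a5, Pax8, Nkx2-1, Foxe1 and Hhex summed to 25997 to 31905 TPM in the pools and to 364 to 1179 TPM in the tumours. Tg made up most of the pool sums (25676 to 31240 TPM, against 81.9 to 511 TPM in the tumours). Tg and Slc5a5 were lower in every tumour than in any pool, and the ranges of the other markers overlapped. Nkx2-1 was at 39.7 to 135 TPM in the pools and 52.4 to 271 TPM in the tumours, and Hhex at 30.2 to 104 and 41.4 to 194 TPM. Macrophage markers summed to 61.2 to 286 TPM in the pools and to 220 to 5203 TPM in the tumours, highest in Tert-123 tumour 4 and next in K5-Tert tumour 3 (3861 TPM). Endothelial markers summed to 109.9 to 962 TPM in the pools and to 18.5 to 135 TPM in the tumours. C cell markers summed to 253 to 2145 TPM in the pools and to 4.52 to 43.6 TPM in the tumours, and parathyroid markers reached 642 TPM in the Tert-123C>T pool. Of the C cell markers Calcb went the other way, at 0 TPM in every pool and up to 37.7 TPM in the tumours. In sorted bulk samples such as these, fewer cells of a type and less RNA per cell cannot be told apart. The part of these cell types in the results below was not tested.

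Potassium channels let potassium ions leave or enter the cell and so set the membrane voltage, which drives the movement of other ions. Leak channels of the tandem-pore family (Kcnk) and inward rectifiers (Kcnj) are open at rest, whereas voltage-gated channels (among them Kcna, Kcnb, Kcnc, Kcnd, Kcnh and Kcnq) open on depolarisation and calcium-activated channels (Kcnn, Kcnma1) open when calcium rises inside the cell. In thyrocytes a channel built from Kcnq1 and Kcne2 is known to support iodide uptake.

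The promoters of 67 of the 91 genes were found in RefSeq (mouse build GRCm38.p6; 300 bases around the start, most of them before it). They are shown for members that reached 10 TPM in any library and whose pools and tumours did not overlap. Kcnk1, Kcnk5 and Kcnj16 were higher in every pool than in any tumour, and Kcnq5 was higher in every tumour than in any pool. Kcnh3, also higher in every pool, is missing because its promoter was not found. Members at lower levels, such as Kcnc4, could be separated in the same way and are not shown. Each promoter is printed 5′ to 3′ on the strand of the gene. Capitals mark TCAAG, the core bases of a site for the thyroid factor Nkx2-1, or its reverse complement.
Kcnk1 (chr8:125994852-125995151, plus strand): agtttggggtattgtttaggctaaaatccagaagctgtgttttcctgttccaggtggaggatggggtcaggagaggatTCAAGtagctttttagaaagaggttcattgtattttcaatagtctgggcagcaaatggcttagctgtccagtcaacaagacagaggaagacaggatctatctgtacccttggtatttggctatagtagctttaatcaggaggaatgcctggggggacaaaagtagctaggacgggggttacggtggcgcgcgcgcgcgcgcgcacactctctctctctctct
Kcnk5 (chr14:20181733-20182032, minus strand): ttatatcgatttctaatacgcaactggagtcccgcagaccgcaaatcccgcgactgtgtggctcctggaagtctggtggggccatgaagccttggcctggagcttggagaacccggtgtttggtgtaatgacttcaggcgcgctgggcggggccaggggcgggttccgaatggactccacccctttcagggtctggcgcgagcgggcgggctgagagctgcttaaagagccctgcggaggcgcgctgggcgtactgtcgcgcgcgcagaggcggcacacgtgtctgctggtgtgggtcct
Kcnj16 (chr11:110967783-110968082, plus strand, the first of 4 listed starts): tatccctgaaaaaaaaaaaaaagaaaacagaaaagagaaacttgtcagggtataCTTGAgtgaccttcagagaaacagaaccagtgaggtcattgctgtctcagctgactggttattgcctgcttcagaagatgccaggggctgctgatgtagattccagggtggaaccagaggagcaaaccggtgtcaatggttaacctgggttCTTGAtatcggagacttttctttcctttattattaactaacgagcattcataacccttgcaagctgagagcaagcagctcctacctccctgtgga
Kcnq5 (chr1:21961893-21962192, minus strand, the second of 2 listed starts): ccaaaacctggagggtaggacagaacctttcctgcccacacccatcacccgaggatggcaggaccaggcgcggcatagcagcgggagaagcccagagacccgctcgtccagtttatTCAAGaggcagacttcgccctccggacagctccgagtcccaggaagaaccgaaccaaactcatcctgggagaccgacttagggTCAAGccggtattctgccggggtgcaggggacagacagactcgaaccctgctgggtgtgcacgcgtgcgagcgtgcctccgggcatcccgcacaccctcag
The motif was searched on both strands and is common: it stood in 40.9% of 27025 promoters of the same length, counted at the first listed start of each gene, and in 18 of the 67 channel promoters (26.9%). It occurs once in the Kcnk1 promoter, at 2 places in those of Kcnj16 and Kcnq5, and not in these letters in that of Kcnk5. The first listed start of Kcnq5 has no match, and the second is shown because it does. An AP-1 site (TGANTCA), a short CREB motif (TGACG) and an ETS site (CCGGAA), also searched on both strands, are in none of the 4 sequences shown. Over all promoters they were found in 7.93%, 21.0% and 15.2%, and among the channel promoters in 3, 17 and 6 of 67. A match to the CREB motif can share bases with a match to TCAAG.

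Most potassium channel genes were at low levels in thyrocytes. Of the 91, 28 stayed under 1 TPM in every library, 29 reached 1 TPM but in fewer than 4 libraries, and 34 reached it in at least 4. In all, 13 reached 10 TPM in any library, and 5 did so in at least 4 libraries: Kcnk1, Kcnh3, Kcnj15, Kcnj16 and Kcnq5. No member was at 0 in all libraries. Members listed at 0 numbered 47 to 58 per pool, 4 to 12 per Braf, 2 to 21 per Tert-123 and 16 to 56 per K5-Tert tumour. Over all genes the pools listed 11664 to 12262 at 1 TPM or more, and the tumours 10958 to 15045.

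The summed level of the 91 genes was highest in the pools, at 490 to 879 TPM. It was 235 to 271 TPM in the Braf tumours, 213 to 305 TPM in the Tert-123 tumours and 148 to 226 TPM in the K5-Tert tumours, so that all 4 K5-Tert tumours lay below the Braf tumours and K5-Tert tumour 1 overlapped the Tert-123 tumours. In each pool the same 3 genes, Kcnk1, Kcnh3 and Kcnk5, held at least 71.8% of the sum. Kcnk1 was the highest of the 91 in all 18 libraries.

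By subfamily, the tandem-pore leak channels held 14 genes, of which Kcnk1 and Kcnk5 reached 10 TPM. The inward rectifiers held 15, of which Kcnj15 and Kcnj16 reached 10 TPM and 6 stayed under 1 TPM everywhere. One of these was Kcnj10, the usual pore partner of Kcnj16 in kidney and glia (highest value 0.836 TPM). The fast voltage-gated channel Kcnc4 reached 8.19 TPM, and of the 8 ether-a-go-go genes (Kcnh) only Kcnh3 reached 10 TPM. The silent modifiers of the Kcnb channels (10 genes) did not pass 9.43 TPM, the level of Kcnf1 in Tert-123 tumour 3.

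The thyroid pair Kcnq1 and Kcne2 was unequal in these libraries. Kcnq1 was at 9.13 to 13.0 TPM in the Braf tumours, 2.73 to 10.7 TPM in the Tert-123 tumours, 3.90 to 7.74 TPM in the K5-Tert tumours and 2.81 to 6.67 TPM in the pools, whereas Kcne2 never passed 0.815 TPM and was listed at 0 in 13 of 18 libraries. The antisense RNA Kcnq1ot1, which overlaps Kcnq1, was itself at 0.370 to 4.45 TPM. Whether reads were counted by strand was not given in the sources used here. Whether reads of the 2 were kept apart is therefore unknown.

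**Figure D1:**
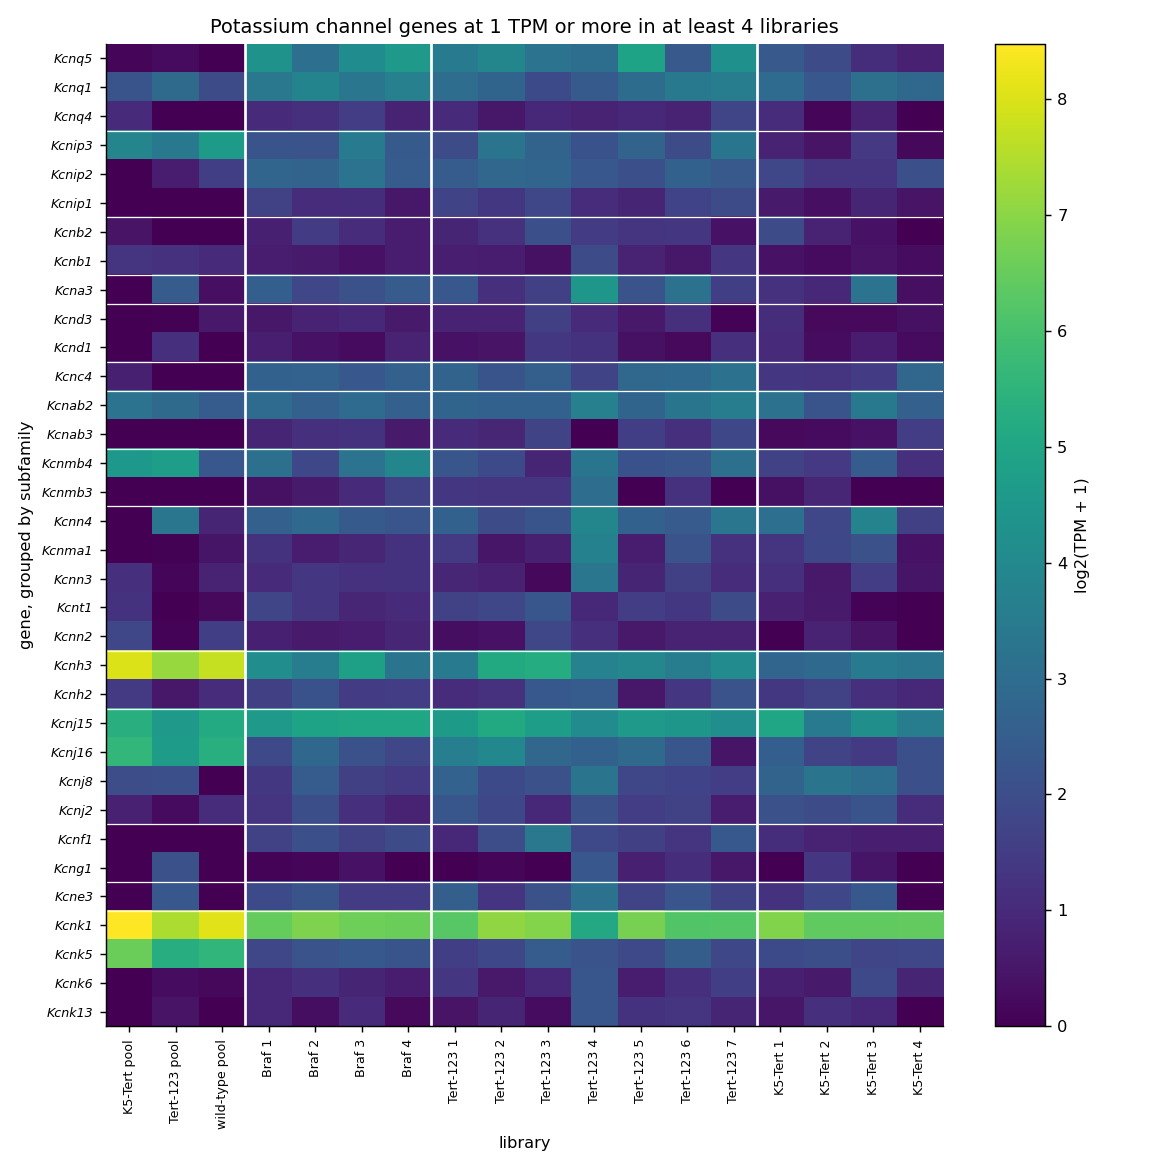
Level of the 34 potassium channel genes that reached 1 TPM in at least 4 libraries, as log2(TPM + 1), with genes in rows grouped by subfamily (thin lines) and the 18 libraries in columns grouped by genotype (thick lines). Kcnk1, Kcnh3 and Kcnk5 are bright in the 3 pools on the left, Kcnq5 is brighter in the tumours than in the pools, and most other rows stay dark.

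The first comparison asked how thyrocytes with the Braf mutation differ from those without it, in a model of the 18 libraries with a term for the mutation and one for each Tert allele (limma on log2(TPM + 1), p adjusted over all genes tested). The model takes the change with each Tert allele to be the same with and without the mutation. Where that does not hold, part of the change with the allele enters the fold for the mutation. Each pool genotype has a single library, so the spread behind these p-values comes mostly from the tumours. Spread within tissue lacking the mutation was not measured, and small p-values here do not account for it. The leak channels Kcnk1 and Kcnk5, the inward rectifier Kcnj16 and the ether-a-go-go channel Kcnh3 were lower in the tumours, and the slow voltage-gated channel Kcnq5 was higher. Of the 5 members that reached 10 TPM in at least 4 libraries, 1 was higher and 3 were lower. Among all 7825 genes that passed this filter, 25.4% were called, 15.4% higher and 10% lower. With the filter lowered to 1 TPM, 34 members were tested, of which 6 were higher and 6 lower. Among all 14711 genes that passed it, 24.5% were called (14.2% higher and 10.3% lower). Either filter asks for 4 libraries and there are 3 pools, so a member reaching it only in the pools could not be tested. A member reaching it only in tumours could be. With no filter all 91 members were tested and 6 were higher and 9 lower, beside 1788 higher and 1423 lower of 22693 genes. With quantile normalization the split was 0 higher and 3 lower at 10 TPM, and 4 higher and 8 lower at 1 TPM. With TMM-type factors it was 1 higher and 3 lower at 10 TPM, and 9 higher and 6 lower at 1 TPM.

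Among the leak channels, Kcnk1, a weakly conducting tandem-pore channel of epithelia, was at 354 TPM in the K5-Tert pool, 172 TPM in the Tert-123C>T pool and 269 TPM in the wild-type pool. The 15 tumours ranged from 33.2 TPM (Tert-123 tumour 4) through a median of 87.7 TPM to 133 TPM. All 15 lay below every pool. The fitted log2 fold change was -1.49 (SE 0.29, limma adjusted p = 4.54e-04).

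Kcnk5, a leak channel sensitive to alkaline pH and known from the kidney tubule, was at 93.0, 37.7 and 47.2 TPM in the K5-Tert, the Tert-123C>T and the wild-type pool. In the tumours it ran from 2.005 to 4.69 TPM with a median of 2.77 TPM, so the groups were far apart and the tumours close together. It was tested at the 1 TPM filter, with a log2 fold change of -3.78 (SE 0.27, limma adjusted p = 1.99e-09). Kcnk6, another leak channel, was at 0.478 to 3.80 TPM in the tumours and at most 0.212 TPM in the pools (log2 0.91, limma adjusted p = 0.0448). That call was lost with little change of the fold without the wild-type pool (log2 0.98, adjusted p = 0.0992), the K5-Tert pool (0.85, 0.114) or the Tert-123C>T pool (0.89, 0.134), and without any one of K5-Tert tumour 3, Braf tumours 1, 2 or 3 and the Tert-123 tumours 1, 6 or 7 (0.0546 to 0.0638). Over all the alternatives the log2 fold change of Kcnk6 ran from 0.13 to 0.98, so its size was not stable.

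Kcnh3, a voltage-gated channel best known from forebrain neurons, was the second channel gene of each pool, at 258 TPM (K5-Tert), 142 TPM (Tert-123C>T) and 212 TPM (wild type). In the tumours it ran from 5.76 TPM through a median of 10.8 TPM to 37.2 TPM, and all 15 lay below every pool. The log2 fold change was -3.86 (SE 0.38, limma adjusted p = 1.09e-07). C cell markers were highest in the Tert-123C>T pool (2145 TPM, against 253 TPM in the K5-Tert and 431 TPM in the wild-type pool), where Kcnh3 was lowest of the 3. Like Kcnh3, their sum was higher in every pool than in any tumour (4.52 to 43.6 TPM in the tumours). The part of C cells in the Kcnh3 level was not tested.

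The inward rectifiers split. Kcnj16, an epithelial subunit that makes its partners sensitive to pH, was at 48.2, 24.3 and 40.0 TPM in the K5-Tert, the Tert-123C>T and the wild-type pool and at 0.382 to 14.4 TPM in the tumours (median 3.86 TPM), with no overlap. Its log2 fold change was -2.93 (SE 0.51, limma adjusted p = 1.41e-04). Kcnj15, a related rectifier of kidney and secretory epithelia, was at 39.6, 22.4 and 35.2 TPM in the same pools and at 10.03 to 34.7 TPM in the tumours, so that the ranges overlapped and 7 of 15 tumours lay below every pool. It did not pass the test (log2 -0.51, SE 0.29, limma adjusted p = 0.215).

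Accessory subunits moved both ways. Kcnip3, a calcium sensor that binds Kcnd channels and also DNA, was at 13.49, 9.63 and 23.5 TPM in the K5-Tert, the Tert-123C>T and the wild-type pool and at 0.136 to 9.90 TPM in the tumours, where 14 of 15 lay below every pool; it was lower by the test (log2 -1.98, SE 0.39, limma adjusted p = 8.19e-04). Its relatives Kcnip2 and Kcnip1 were higher in tumours. Kcnip2 was at 0, 0.547 and 1.96 TPM in the pools and 1.43 to 8.41 TPM in the tumours (log2 1.57, adjusted p = 1.16e-04), with 13 of 15 tumours above every pool.

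Kcnip1 was listed at 0 in all 3 pools and stood at 0.268 to 2.82 TPM in the tumours (limma adjusted p = 0.00922). Without the Tert-123C>T pool its adjusted p was 0.103. Kcnmb4, a subunit that slows the large-conductance channel, was at 21.9 and 25.2 TPM in the K5-Tert and Tert-123C>T pools but at 3.98 TPM in the wild-type pool, within the 0.854 to 13.6 TPM of the tumours. Its call (log2 -1.56, SE 0.54, limma adjusted p = 0.0376) was lost without the K5-Tert pool (-0.94, adjusted p = 0.261), without the Tert-123C>T pool (-1.08, 0.263) and without Braf tumour 2 or K5-Tert tumour 1, 2 or 4 (adjusted p up to 0.0537). The antisense entry Kcnmb4os2 was at 0 to 4.74 TPM, highest in the Tert-123C>T pool. Whether its reads were kept apart from those of Kcnmb4 is unknown too.

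Kcnq5, which carries a slow current that steadies the membrane voltage, was nearly absent from the pools, at 0.0832, 0.191 and 0 TPM in the K5-Tert, the Tert-123C>T and the wild-type pool. Braf tumours 1 to 4 were at 18.8, 7.50, 16.6 and 22.2 TPM, and all 15 tumours exceeded every pool. The log2 fold change was 2.95 (SE 0.51, limma adjusted p = 1.50e-04). It is not the plain difference between Braf tumours and pools, because the model gives K5-Tert the same change in tumours and pools. Kcnq5 was lower in K5-Tert than in Braf tumours but near 0 in every pool. With quantile normalization at the 10 TPM filter it was 1.02 (adjusted p = 0.167).

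Smaller rises were found in 2 other voltage-gated members. Kcnc4, a channel that opens and closes quickly, was at 0.675, 0 and 0 TPM in the pools and at 1.45 to 8.19 TPM in the tumours (log2 2.06, SE 0.35, limma adjusted p = 1.84e-04). Kcnf1, a subunit that forms no channel of its own but modifies Kcnb channels, was listed at 0 in all pools and at 0.620 to 9.43 TPM in the tumours (limma adjusted p = 0.00313). For both, all 15 tumours lay above every pool. Zeros were common in the pools, at 47 to 58 of the 91 members in each, so a value of 0 there is not particular to these genes.

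**Figure D2:**
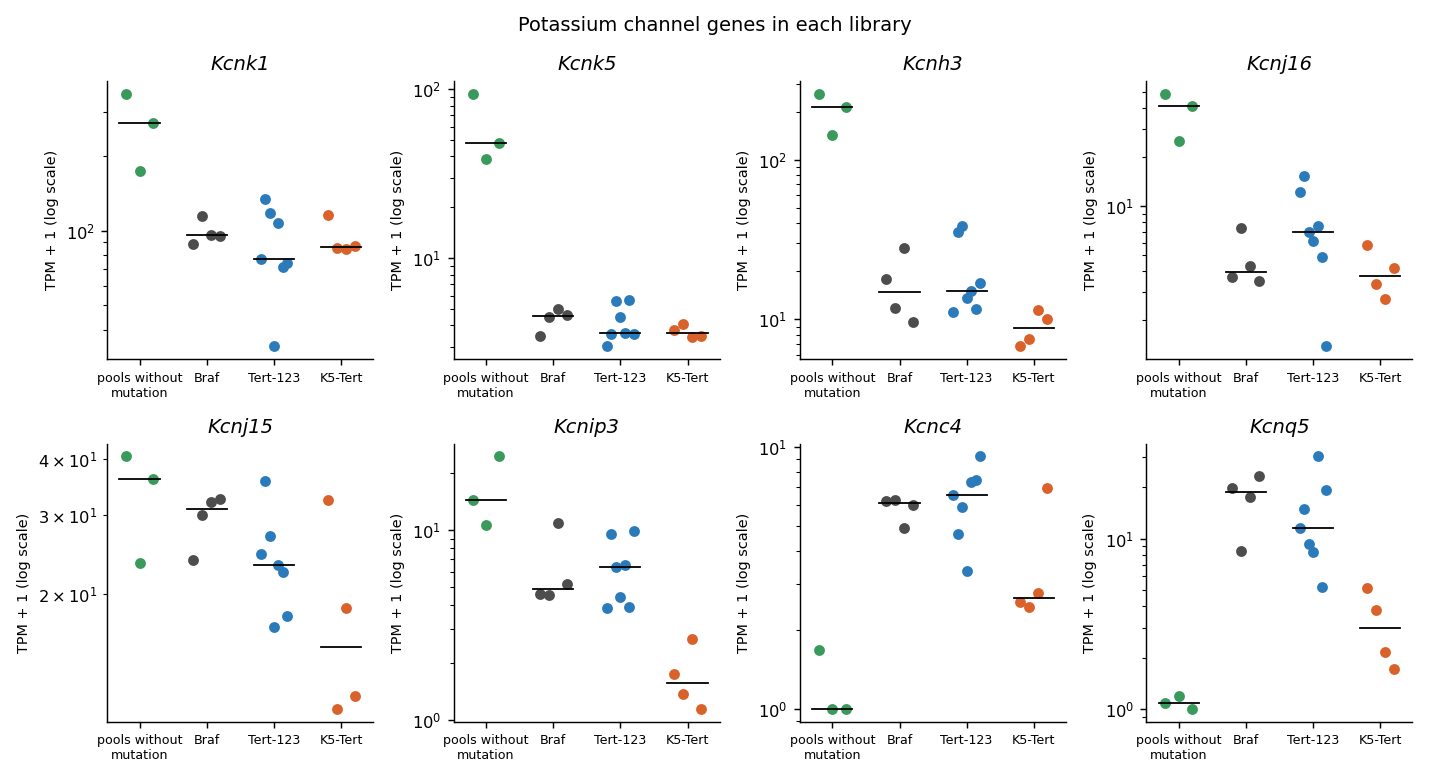
Level of 8 potassium channel genes in each library as TPM + 1 on a log scale, 1 point per library, with the median of each group as a bar (3 pools, 4 Braf, 7 Tert-123 and 4 K5-Tert tumours). Kcnk1, Kcnk5, Kcnh3 and Kcnj16 are higher in every pool than in any tumour, Kcnc4 and Kcnq5 are lower in every pool than in any tumour, and Kcnip3 and Kcnq5 are lower in every K5-Tert tumour than in any other tumour.

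**Figure D3:**
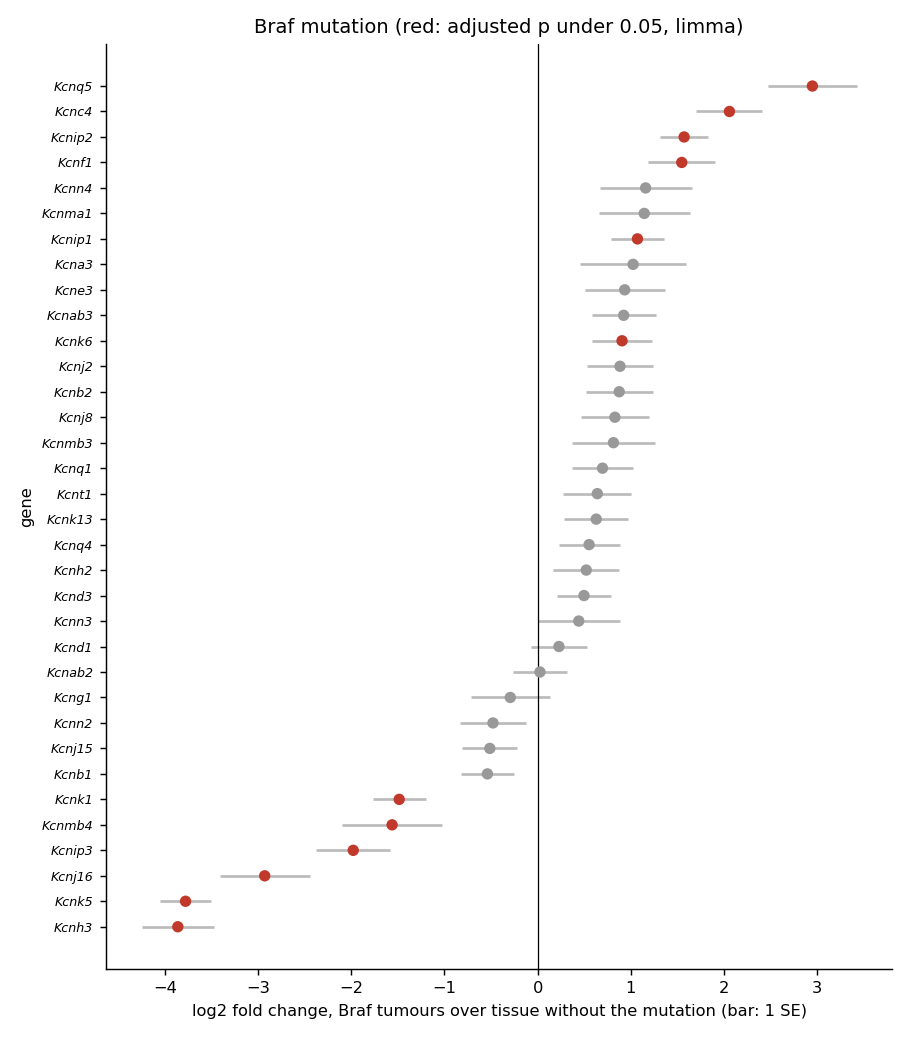
Fitted log2 fold change with 1 SE of the 34 members tested at the 1 TPM filter, Braf mutation against tissue lacking it. Red points passed the threshold: 6 lie to the right of 0, led by Kcnq5 (2.95), and 6 to the left, led by Kcnh3 (-3.86).

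The second comparison asked what the K5-Tert transgene goes with in Braf-mutant tumours. None of the members tested was higher and 3 were lower, Kcnq5, Kcnip3 and Kcnip2. At the 10 TPM filter 4 members were tested and 1 was lower, against 22.5% of 7498 genes called (0.587% higher and 21.9% lower). At 1 TPM 31 were tested and 3 were lower, against 16.1% of 14390 genes (0.417% higher and 15.7% lower). The share of members called lower was thus not above that of all genes at 1 TPM, and the median over all genes at the 10 TPM filter was itself shifted, to -0.48.

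Scaling by factors of the TMM type brought that all-gene median to 0.050 and left 1 member lower at 10 TPM; at 1 TPM it gave 1 higher and 2 lower, as did quantile normalization. K5-Tert tumours listed 10958 to 12699 genes at 1 TPM or more and the other tumours 13103 to 15045. The noncoding RNA Rpph1 took 68.8% and 67.6% of the TPM in K5-Tert tumours 2 and 4, beside 67.4% in Tert-123 tumour 1 and 43.7% to 62.6% in the other tumours. Without K5-Tert tumours 2 and 4 limma called 18 of 7470 genes against Braf tumours (3 higher and 15 lower) and 17 against Tert-123 tumours (3 higher and 14 lower), so nearly all calls of these comparisons, over all genes, were lost. Values without those 2 tumours are given for the genes set against Braf tumours below.

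Kcnq5 was at 4.14, 2.79, 1.17 and 0.726 TPM in K5-Tert tumours 1 to 4. Tert-123 tumours ran from 4.20 TPM (tumour 6) through a median of 10.5 TPM to 29.3 TPM (tumour 5). The K5-Tert tumours were below every other tumour, by a narrow gap between K5-Tert tumour 1 and Tert-123 tumour 6. The log2 fold change was -2.47 against Braf tumours (SE 0.48, limma adjusted p = 0.00458) and -2.06 against Tert-123 tumours (SE 0.42, adjusted p = 0.00463).

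Like nearly all calls over all genes, both Kcnq5 calls were lost without K5-Tert tumours 2 and 4 (-2.28, limma adjusted p = 0.102, and -1.87, adjusted p = 0.149). Under quantile normalization at 10 TPM they did not pass either (-1.71, adjusted p = 0.0547, and -1.30, adjusted p = 0.0912), while at 1 TPM the first did (-1.92, adjusted p = 0.0382) and the second did not (-1.502, adjusted p = 0.0577).

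Of the accessory subunits, Kcnip3 was at 3.58, 3.53, 9.90 and 4.22 TPM in Braf tumours 1 to 4 and at 0.748, 0.362, 1.65 and 0.136 TPM in K5-Tert tumours 1 to 4. Tert-123 tumours ran from 2.87 to 8.85 TPM. The K5-Tert tumours were below all others, and Braf tumour 3 stood above the rest of its group. The log2 fold change was -1.84 against Braf (SE 0.38, limma adjusted p = 0.00989) and -1.86 against Tert-123 tumours (SE 0.34, adjusted p = 0.00461); without K5-Tert tumours 2 and 4 neither passed (adjusted p = 0.178 and 0.172).

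Kcnip2 was at 4.49 to 8.41 TPM in the Braf and 1.43 to 3.24 TPM in the K5-Tert tumours, with no overlap (log2 -1.17, SE 0.27, limma adjusted p = 0.0130). That call was lost with TMM-type factors (-0.75, adjusted p = 0.104), without Braf tumour 3 (-1.03, 0.0594) and without K5-Tert tumours 2 and 4 (-1.24, 0.0929). The leak and rectifier genes that fell with the Braf mutation gave no call between these tumour groups. Kcnk1 was at 87.7, 114, 95.2 and 94.4 TPM in the Braf and 115, 83.7, 83.4 and 85.6 TPM in the K5-Tert tumours (log2 -0.09, SE 0.32, limma adjusted p = 0.838), and its direction flipped with TMM-type factors (0.47) and without K5-Tert tumours 2 and 4 (0.0091).

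Kcnj15 was at 22.8, 28.9, 31.1 and 31.6 TPM in Braf and 31.4, 10.03, 17.6 and 10.8 TPM in K5-Tert tumours 1 to 4 and did not pass (log2 -0.81, SE 0.30, limma adjusted p = 0.0575). With library weights it was called lower (-1.27, adjusted p = 5.57e-05), as were 4852 of all 7498 genes, with a median of -0.73, and without K5-Tert tumours 2 and 4 the difference was -0.26. Kcnh3 ran from 8.67 to 27.0 TPM in the Braf and from 5.76 to 10.4 TPM in the K5-Tert tumours (log2 -0.82, SE 0.40, limma adjusted p = 0.127; -0.81 without K5-Tert tumours 2 and 4). Kcnj8, the pore of a channel closed by ATP and typical of vascular smooth muscle and pericytes, was at 1.61, 4.51, 2.05 and 1.73 TPM in Braf and 5.42, 8.57, 7.26 and 3.16 TPM in K5-Tert tumours 1 to 4. It did not pass as deposited (log2 1.03, limma adjusted p = 0.0654) but passed with TMM-type factors (1.503, adjusted p = 0.0318), with quantile normalization (1.60, 0.0298) and without Tert-123 tumour 4 (1.03, 0.0361). Without K5-Tert tumours 2 and 4 it was 1.14 (adjusted p = 0.275). Pericyte and smooth muscle markers summed to 17.1 to 35.9 TPM in Braf and 37.2 to 185 TPM in K5-Tert tumours; their part in the result was not tested.

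Against the Tert-123 tumours, 2 of 4 members were lower in K5-Tert tumours at the 10 TPM filter and none higher (30.2% of all genes called, 0.76% higher and 29.5% lower). At 1 TPM 7 of 31 were lower (21% called, 0.493% higher and 20.6% lower). This comparison and the last share the K5-Tert tumours. Beside Kcnq5, Kcnip3 and Kcnip2 (log2 -0.86, limma adjusted p = 0.0203), the 7 were Kcnh3, Kcnt1, Kcnip1 and Kcnf1.

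Kcnt1, a channel opened by sodium, was at 0.989 to 3.83 TPM in the Tert-123 and 0 to 0.717 TPM in the K5-Tert tumours, without overlap (log2 -1.29, SE 0.28, limma adjusted p = 0.00879). With quantile normalization at 1 TPM only Kcnip3 of the 31 members stayed lower, so the Kcnt1 call was lost there. Kcnip1 (-0.93, adjusted p = 0.0262), Kcnf1 (-1.08, 0.0358), Kcnh3 (-1.04, 0.0335) and Kcnip2 all lost the call with TMM-type factors, with adjusted p between 0.111 and 0.441 at the 1 TPM filter, which left 3 of 31 lower. Leaving out single libraries ended these calls too, with folds about as large (-1.01 to -1.08 for Kcnf1, -0.86 to -1.11 for Kcnh3, -0.85 and -0.89 for Kcnip1 and -0.75 for Kcnip2). Kcnh3 was lost without Tert-123 tumour 2 or 3 or K5-Tert tumour 1, 2 or 4 (adjusted p = 0.0570 to 0.121), Kcnf1 without Tert-123 tumour 2 or 7 or K5-Tert tumour 2, 3 or 4 (0.0511 to 0.108), Kcnip1 without K5-Tert tumour 2 or 4 (0.102 and 0.0887) and Kcnip2 without K5-Tert tumour 2 (0.0851). Without K5-Tert tumours 2 and 4 none of 31 members passed at 1 TPM, where only 3 of all 14291 genes were called higher and 9 lower.

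**Figure D4:**
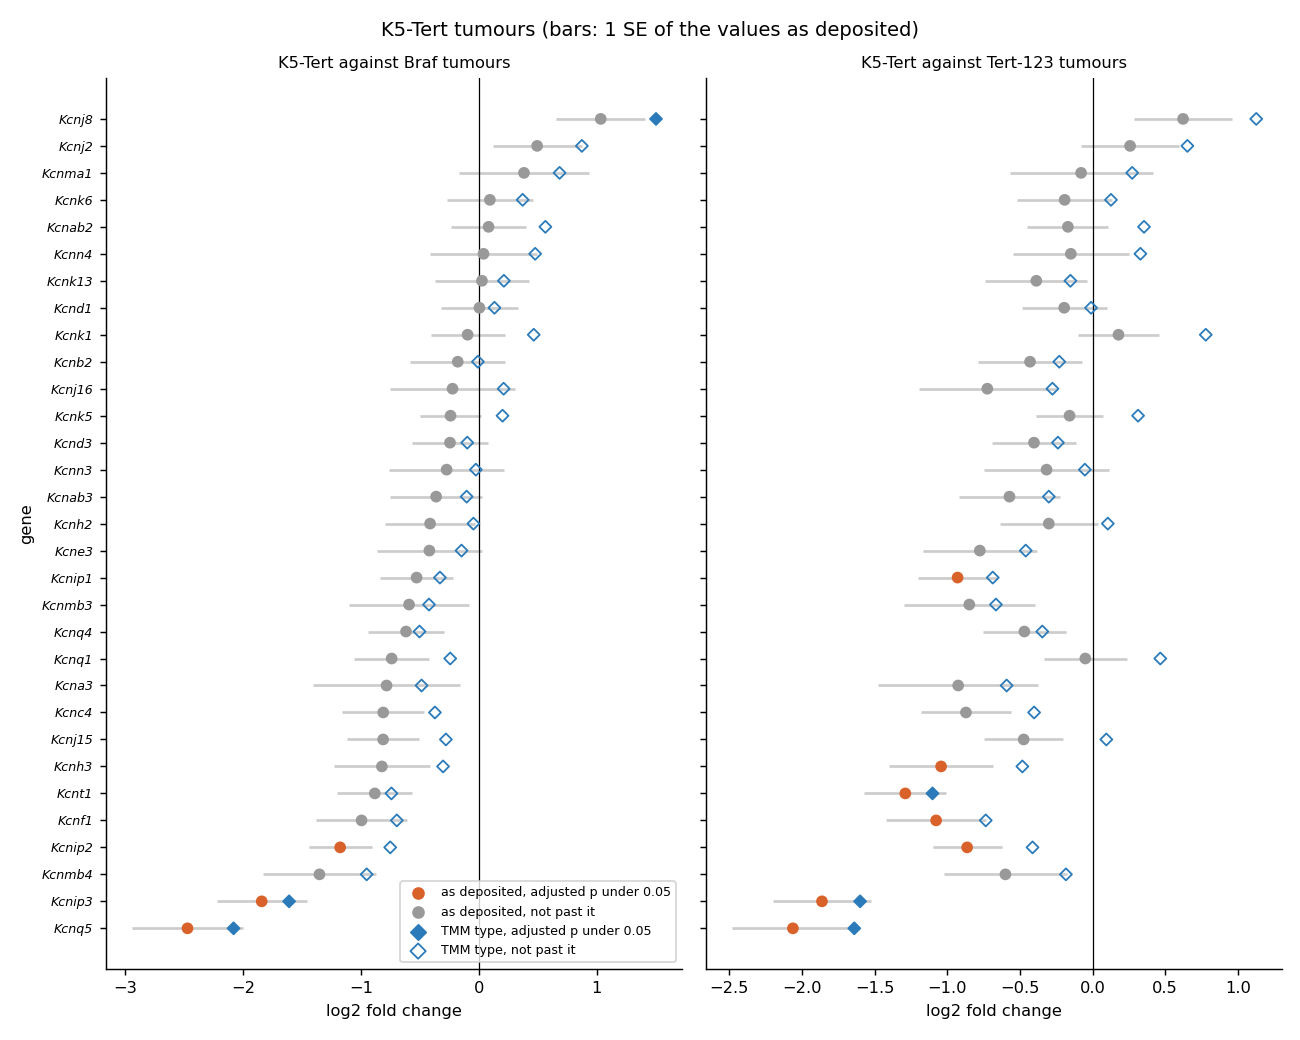
Log2 fold change of the 31 members tested at the 1 TPM filter in K5-Tert tumours, against Braf tumours (left) and Tert-123 tumours (right). Circles with bars of 1 SE are the values as deposited, diamonds those with TMM-type factors, and orange circles and filled diamonds mark an adjusted p under 0.05. The diamonds lie to the right of their circles, and Kcnq5 and Kcnip3 are past the threshold on both scales and in both panels.

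The third comparison asked what Tert-123C>T goes with in Braf-mutant tumours, and no potassium channel gene differed by the test. limma called 0 of 4 members at 10 TPM and 0 of 31 at 1 TPM, as it called none of all genes (0% at both filters). At an unadjusted p under 0.05 there were 0 and 1 members, beside 50 of 7498 and 238 of 14390 genes. The 1 was Kcnq1, at 9.39, 13.0, 9.13 and 11.8 TPM in Braf tumours 1 to 4 and at 2.73 to 10.7 TPM (median 6.90 TPM) in the Tert-123 tumours. These ranges overlapped (log2 -0.69, SE 0.28, limma adjusted p = 0.9998).

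Estimates for the main members were of about the same size as their errors. Log2 differences were -0.27 for Kcnk1 (SE 0.28), -0.41 for Kcnq5 (SE 0.42), 0.22 for Kcnh3 (SE 0.35) and -0.34 for Kcnj15 (SE 0.27). At these errors a modest change would not have been detected. Tert-123 tumours varied more than Braf tumours in Kcnk1, from 33.2 to 133 TPM against 87.7 to 114 TPM, and tumour 4 was the lowest.

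A further group of members was high in single libraries rather than in a genotype. Tert-123 tumour 4 listed 46 of the 91 members at 1 TPM or more, against 14 to 31 in the other tumours. It also listed the most genes over all, 15045. High values in that library were thus not limited to the members named below. Kcna3, a voltage-gated channel of T cells and macrophages, was at 21.5 TPM in Tert-123 tumour 4 and at 1.27 to 8.18 TPM in the other Tert-123 tumours. Kcnn4, a calcium-activated channel of leukocytes and epithelia, was at 13.7 TPM in that library and at 12.7 TPM in K5-Tert tumour 3. Kcnma1, the pore of the large-conductance channel, was at 12.1 TPM in Tert-123 tumour 4 and at no more than 3.52 TPM in any other library.

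The same libraries had the most macrophage RNA. All 9 macrophage markers were detected, and their sum was 5203 TPM in Tert-123 tumour 4 and 3861 TPM in K5-Tert tumour 3, against 220 to 2312 TPM in the other tumours. Fibroblast markers were also highest there, at 1696 and 1084 TPM. Kcnab2, a cytoplasmic subunit of Kcna channels, was at 12.02 TPM in Tert-123 tumour 4 and 3.63 to 10.8 TPM in the rest. The Tert-123C>T pool had 158.9 TPM of T cell markers and was the highest pool for Kcna3 (4.53 TPM) and Kcnn4 (8.94 TPM). The part of these cells in the channel levels was not tested, and none of these 4 genes passed in any of the 4 comparisons.

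**Figure D5:**
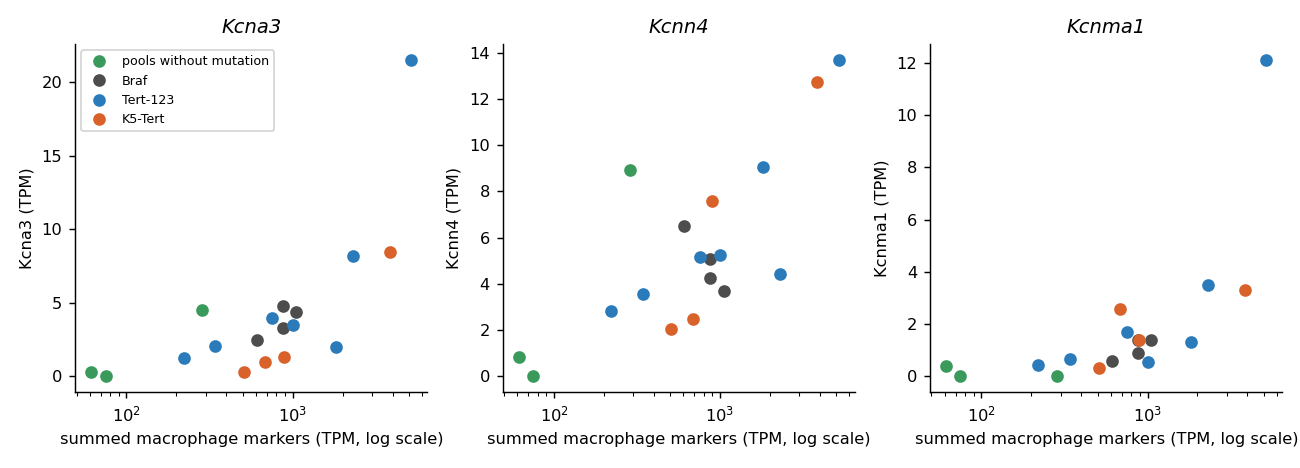
Level of Kcna3, Kcnn4 and Kcnma1 (TPM) in each of the 18 libraries against the summed level of 9 macrophage markers (TPM, log scale), coloured by group. The point farthest right, Tert-123 tumour 4, is the highest in all 3 panels, at 21.5, 13.7 and 12.1 TPM.

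Members were also compared with each other over the 11 Braf and Tert-123 tumours, using log2(TPM + 1) of the 4 genes tested at 10 TPM (6 pairs). Kcnk1 and Kcnj15 gave Pearson r = 0.79 (permutation p = 0.00131, adjusted over the 6 pairs 0.00786) and Spearman rho = 0.76 (permutation p = 0.00862, adjusted 0.0517, which did not pass). Without the 2 tumours farthest from the median of Kcnk1, r was 0.60. The other 5 pairs did not pass by either measure. The values of 1 library share its scaling, and the labels name no batch within which to repeat this.

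Other genes of ion transport were counted by list at the 10 TPM filter, where 15.4% of all genes were higher and 10% lower with the Braf mutation. With the Braf mutation, 2 of 5 tested sodium-potassium pump genes were higher and none lower, both regulators of the pump: Fxyd5 (log2 1.94, limma adjusted p = 5.79e-04) and Fxyd3 (2.63, 0.0180). The Tert-123C>T pool was as high as the Braf tumours for both, at 78.5 TPM of Fxyd5 against 68.6 ± 8.22 TPM (SD, n = 4) and at 27.6 TPM of Fxyd3 against 25.5 ± 20.8 TPM (SD, n = 4). Of the 7 cation-chloride cotransporters and their kinases, 2 were higher, the sodium-potassium-chloride cotransporter Slc12a2 (1.51, adjusted p = 2.84e-04) and its kinase Stk39 (1.36), and 1 was lower, the kinase Wnk1 (-0.89). Chloride channels gave 3 higher and 3 lower of 13, and calcium entry genes none of 5.

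Of 13 other cation channels 4 were higher and 4 lower. Trpv6, an epithelial calcium channel, stood at 51.8 ± 21.3 TPM (SD, n = 4) in Braf tumours and 2.36 to 5.11 TPM in the pools (log2 3.49, SE 0.35). Scnn1a, a subunit of the epithelial sodium channel, stood at 5.05 ± 1.54 TPM (SD, n = 4) and 29.3 to 69.9 TPM (log2 -3.14, SE 0.42). Of 15 regulators of potassium channels 1 was higher (Slc9a3r1, a scaffold) and 3 were lower, among them the kinase Sgk1 (-1.93) and the ubiquitin ligase Nedd4l (-1.16). Of 7 thyroid genes 4 were lower, led by thyroglobulin, Tg (-7.49, SE 0.41), and 1 was higher. At the 1 TPM filter the counts higher and lower were 6 and 1 of 14 pump genes, 2 and 1 of 11 cotransporters and kinases, 5 and 5 of 24 chloride channels, 5 and 5 of 24 other cation channels, 2 and 2 of 13 calcium entry genes, 2 and 5 of 19 regulators and 1 and 10 of 14 thyroid genes, beside 14.2% and 10.3% of all genes.

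In K5-Tert against Braf tumours no gene of these lists was higher at either filter. The counts lower, beside 21.9% of all genes, were 0 of 5 pump genes, 2 of 7 cotransporters and kinases (Wnk2, -1.30, and Stk39, -0.96), 1 of 13 chloride channels (Ano8, -0.89), 1 of 12 other cation channels (Trpm6, -1.15), 0 of 4 calcium entry genes, 4 of 14 potassium channel regulators and 4 of 7 thyroid genes. The regulators included Slc5a3, an inositol transporter that binds Kcnq channels (-1.79, limma adjusted p = 0.0150), and the scaffold Akap9 (-1.18, adjusted p = 0.0174). Hhex (-1.37), Nkx2-1 (-1.31) and Glis3 (-1.20), transcription factors of thyrocyte identity, were among the thyroid genes. List medians ran from -1.20 (thyroid genes) to -0.12 (pump genes) beside -0.48 for all genes. In Tert-123 against Braf tumours no gene of any list was called.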

How the data were processed

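RNA from 9000 to 20000 sorted YFP+ cells was sequenced as paired reads of 100 bp after a low-input protocol with 14 cycles of PCR, per the labels. The deposited table has 23652 entries; 26 with a date for a name, together no more than 0.0455% of any library, were dropped, and 23499 of the 23626 kept matched a reference symbol. The deposited values were treated as TPM because each column sums to 1000000, although the table calls them normalized counts; how reads were aligned, counted and on which build was not given in the sources used here. Read depth is unknown, so no counting interval is given. Rpph1 takes 43.7% to 68.8% of each library.

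Genes at 10 TPM or more in at least 4 of the libraries fitted were tested as log2(TPM + 1) with limma 3.58.1 (R 4.3.3; mean-variance trend, no robust step, two-sided, Benjamini-Hochberg over all genes tested, threshold 0.05), so fold changes of low genes are understated. The 3 tumour groups were fitted together (12 residual degrees of freedom), and the comparison with tissue lacking the mutation used terms for the mutation and each Tert allele over 18 libraries (14). Since 4 or 5 members pass that filter, the fit at 1 TPM is given beside it. No 2 columns were identical. Labels name no batches; the numbers in the sample names of K5-Tert tumours are all higher than those of other tumours, and what this marks cannot be told apart from the genotype. Libraries are numbered within a group in the order of the series.

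Of the genes named by the rule or the lists, 1 potassium channel gene and 1 thyroid gene are not reported here. The members, gene lists and markers were chosen with earlier results of these data known. By rule, members at 10 TPM in 4 libraries are named with all values, those reaching 10 TPM in any library with their levels, and the highest of a subfamily may be named, with up to 3 called genes of each related list; Kcnc4, Kcnip1, Kcnip2, Kcnk6, Kcnt1, Kcnj8, Kcnj10 and Kcne2 were named after their values were seen. Alternatives were pseudocounts of 0.5 and 5, filters at 1 and 50 TPM and none, TMM-type factors (trimming 30% by ratio and 5% by level), quantile scaling, rescaling without Rpph1, library weights, removal of a length trend, Xist as a covariate, fits of the groups compared only and leaving out libraries. The method was tested on simulated data. There genes varied independently, no library was shifted as a whole, and pools were drawn around tumour means. That test therefore does not cover the all-gene shift of the K5-Tert tumours.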

Additional observations from a re-analysis of the deposited data

Results flagged for a closer look

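For the 13 members that reached 10 TPM in any library, the highest or lowest library of each tumour group was set against the others. In 5 of 39 groups 1 library stood apart by Dixon's criterion, applied to TPM without logs. For independent groups of normally distributed values, about 1.95 (1 in 20) would do so. These groups share the same libraries and TPM need not be normal, so an excess over chance was not shown. K5-Tert tumour 1 was high for Kcnk1 (114.8 TPM, the next 85.6 TPM), and basal keratinocyte markers summed to 118 TPM in that library and to 4.15 to 7.86 TPM in the other K5-Tert tumours; their part in the Kcnk1 value was not tested. Braf tumour 3 was high for Kcnip3 (9.90 TPM, the next 4.22 TPM). Tert-123 tumour 4 was high for Kcna3 (21.5 TPM, the next 8.18 TPM) and for Kcnma1 (12.1 TPM, the next 3.52 TPM), and K5-Tert tumour 3 was high for Kcna3 (8.46 TPM, the next 1.30 TPM). Those 2 tumours also had the highest sums of macrophage markers, whose part in the Kcna3 and Kcnma1 values was not tested.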

How the results depend on the processing

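The log2 fold changes of 16 members were recomputed, each under the alternatives run at its filter (fewer at 1 TPM, where the pseudocount, weights, length, Xist and only the groups compared were not run); Kcna3, Kcnn4, Kcnma1 and Kcnab2 were not among them. In all, 857 values kept direction and call, 76 lost the call, 9 gained it and 22 changed sign, none of which was called before or after. Some fits without Tert-123 tumour 4 or without the Tert-123C>T pool were run under more than 1 name, and these totals count them each time. The fits at 1 TPM with other scalings or without libraries were chosen after seeing the data. No paired analysis was possible because the labels carry no replicate numbers. At 50 TPM Kcnk1 was the only member tested in each comparison, so counts at that filter do not show that other members lost a call. In the Braf comparison, the 1 member higher and 3 lower became 6 and 6 with a filter at 1 TPM, 6 and 9 with none, 0 and 1 at 50 TPM, and 4 and 6 after rescaling without Rpph1; the number higher became 0 with quantile normalization and with Braf tumours against the 3 pools as one group or against the wild-type pool; in these 2 fits Kcnq5 did not pass the filter and was not tested. In K5-Tert against Braf tumours, the 1 lower became 3 at 1 TPM, with no filter and without Rpph1, 2 with library weights, and 0 at 50 TPM, with quantile normalization, with only the groups compared (Kcnq5 not tested) and without K5-Tert tumours 2 and 4. At 1 TPM the 3 lower became 0 without those 2 tumours and 5 without Tert-123 tumour 3, Tert-123 tumour 4 or K5-Tert tumour 1, and 0 higher became 1 with TMM-type factors, quantile normalization or without Tert-123 tumour 4. In K5-Tert against Tert-123 tumours, the 2 lower became 7 at 1 TPM, 5 with no filter, 1 with TMM-type factors, the length trend removed, Xist as a covariate or only the groups compared, and 0 at 50 TPM, with quantile normalization and without K5-Tert tumours 2 and 4. At 1 TPM the 7 lower became 3 with TMM-type factors, 1 with quantile normalization and 0 without those 2 tumours. Leaving out 1 library gave 1 to 2 lower against Braf tumours (2 without K5-Tert tumour 1) and 1 to 2 against Tert-123 tumours (1 without Tert-123 tumour 2 or 3 or K5-Tert tumour 2 or 4), 2 to 5 and 3 to 8 at 1 TPM (higher: 0 to 1 and 0 to 0; the 3 without K5-Tert tumour 2), and with the Braf mutation 5 to 8 higher and 5 to 6 lower at 1 TPM. For the values that changed sign the cause was not tested.

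Against Braf tumours, Kcnk1 in K5-Tert tumours became 0.47 with TMM-type factors, 0.11 with quantile normalization, 0.072 without Rpph1, 0.42 with the length trend removed and 0.0091 without K5-Tert tumours 2 and 4, and Kcnj16 became 0.21, 0.31 and, without Braf tumour 2, 0.015 (-0.42 to 0.015 on leaving out 1 library). Against Tert-123 tumours, Kcnj15 became 0.095 with TMM-type factors, 0.026 with quantile normalization (0.022 at 1 TPM), 0.11 with the length trend removed and 0.079 without K5-Tert tumours 2 and 4, and Kcnk1 became -0.064 with library weights and -0.030 without Tert-123 tumour 4 (-0.030 to 0.30 on leaving out 1 library). Kcnh3 in Tert-123 against Braf tumours became -0.0038 without Braf tumour 4 (-0.0038 to 0.51 on leaving out 1 library). Pools are single libraries, so the comparison with tissue lacking the mutation rests on 3 of them, and the unknown depth leaves no detection limit for members listed at 0.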
